A study of Rattus norvegicus with 12 samples.

Results

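The genes described here copy DNA and divide the cell. They were chosen as a fixed list of 40 rat genes (42 names, since Cdk1 may also be written Cdc2 or Cdc2a), matched by symbol to the annotation of an Illumina RatRef-12 bead array. Of the 40 genes, 34 were named on the array by 36 probes, among 13336 symbols in all. The probes of 30 genes were detected (detection p under 0.05) on at least 3 of 12 arrays and were measured, among 6704 measured symbols. Rfc2 and Ccnb1 were detected on 0 arrays, Ccne1 on 1 and Aurka on 2, and these genes were not tested. Mki67, Top2a, Cdk2, Rrm1, Tk1 and Birc5 were not analysed here. Counts over the 30 measured genes leave out the other 10.

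The tissue was intestinal mucosa of male rats, strain Spraque Dawley as the labels spell it, with or without loss of most of the small bowel. Short bowel syndrome (SBS) rats had 75% of the bowel removed, and sham rats had the bowel cut and rejoined without removal. Groups of 6 rats were operated, and nucleic acid quality, per the submitters, left 4 SBS jejunal arrays, 1 sham jejunal array, 4 SBS ileal arrays and 3 sham ileal arrays. The sources used here do not give the age of the rats, the time after surgery or the distance of each sample from the join. Numbers 33 to 39 in the sample descriptions were taken to be rat codes, a reading on which the labels are silent. On that reading SBS rats 36, 37, 38 and 39 each gave both regions (arrays 1, 2, 3 and 4 of each SBS group), sham rat 33 gave both regions, and sham rats 34 and 35 gave ileum.

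In the gut, the epithelium is renewed from the crypts, where stem cells and their daughters divide before they move up the villus and stop dividing. Lymphoid follicles and other cells in the mucosa divide too. Before S phase the MCM complex is loaded on DNA as a ring of 6 subunits, and it is the helicase that opens the replication fork. Pcna is the sliding clamp of the fork, and cyclins with their kinases drive entry into S phase and into mitosis. The Bub1, Bub1b and Mad2l1 checkpoint holds Cdc20 and the anaphase-promoting complex back until all chromosomes are attached to the spindle. These transcripts are made mostly in cycling cells, and in such bulk samples fewer dividing cells and less RNA per cell cannot be told apart.

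Cell cycle promoters are known for 3 short elements: the CCAAT box, the cell cycle homology region (searched here as TTTGAA or TTCGAA) and E2F-type sites. The 250 bases before the gene start are shown for 6 of the genes on which the results turn, 2 helicase subunits and 4 mitotic genes, from RefSeq (assembly GRCr8). They are written 5′ to 3′ on the gene's own strand, and capitals mark CCAAT, both forms of the homology region, and TTTNNCGC (an E2F-type site) on either strand. Matches that overlap run together in capitals.
Mcm3, chr9:30733747-30733996, minus strand: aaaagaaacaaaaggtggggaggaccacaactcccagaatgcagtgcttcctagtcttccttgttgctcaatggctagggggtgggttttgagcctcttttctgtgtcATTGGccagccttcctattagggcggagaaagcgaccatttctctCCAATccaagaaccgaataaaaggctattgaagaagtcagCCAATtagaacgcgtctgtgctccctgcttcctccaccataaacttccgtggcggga
Mcm6, chr13:42404353-42404602, minus strand: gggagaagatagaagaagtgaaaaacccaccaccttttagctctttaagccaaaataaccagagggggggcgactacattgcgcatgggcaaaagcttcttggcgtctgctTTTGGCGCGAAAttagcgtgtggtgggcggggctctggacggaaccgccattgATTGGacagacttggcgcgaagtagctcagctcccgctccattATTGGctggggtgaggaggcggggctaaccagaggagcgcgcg
Ccnb2, chr8:79981659-79981908, minus strand: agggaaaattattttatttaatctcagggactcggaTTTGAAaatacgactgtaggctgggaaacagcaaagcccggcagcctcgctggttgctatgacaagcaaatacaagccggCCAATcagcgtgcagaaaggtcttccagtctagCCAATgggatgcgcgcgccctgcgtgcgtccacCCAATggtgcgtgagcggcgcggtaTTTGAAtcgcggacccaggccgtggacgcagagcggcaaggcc
Cdk1, chr20:19265043-19265292, plus strand: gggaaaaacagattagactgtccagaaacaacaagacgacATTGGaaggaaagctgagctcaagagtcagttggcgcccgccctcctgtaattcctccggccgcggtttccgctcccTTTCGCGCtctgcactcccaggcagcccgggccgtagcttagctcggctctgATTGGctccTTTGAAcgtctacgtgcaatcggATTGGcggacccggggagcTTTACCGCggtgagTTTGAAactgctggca
Plk1, chr1:186147408-186147657, plus strand: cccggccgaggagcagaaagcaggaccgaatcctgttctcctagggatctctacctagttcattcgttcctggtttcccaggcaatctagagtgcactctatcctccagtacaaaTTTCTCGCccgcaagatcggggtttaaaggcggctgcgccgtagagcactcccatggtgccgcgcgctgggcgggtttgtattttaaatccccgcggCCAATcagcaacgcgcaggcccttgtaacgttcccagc
Cdc20, chr5:137255800-137256049, minus strand: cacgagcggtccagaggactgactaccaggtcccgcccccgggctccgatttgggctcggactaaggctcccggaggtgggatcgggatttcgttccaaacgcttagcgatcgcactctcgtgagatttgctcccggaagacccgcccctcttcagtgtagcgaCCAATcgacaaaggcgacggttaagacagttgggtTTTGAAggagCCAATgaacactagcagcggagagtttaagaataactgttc

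Promoter entries matched 34 of the 40 genes, 24 of them among the 30 measured genes. CCAAT stood in 58.3% of these 24 promoters (14), against 34% of 33469 rat promoters of the same length, and 2 or more copies stood in 45.8%, against 9.42%. TTTGAA or TTCGAA stood in 33.3% of the 24, against 17.4%. TTTNNCGC stood in 37.5% of the 24, against 4.11%. Mcm3, Ccnb2 and Cdk1 had 3 CCAAT copies each. Ccnb2 and Cdk1 had 2 TTTGAA copies each, and Mcm6 and Cdk1 had 2 TTTNNCGC matches each. The TTTNNCGC matches of Mcm6 overlap. A match is a string of letters in this window and was not tested as a binding site.

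Levels below are log2 of the background-corrected, quantile normalized bead signal, and differences are on this log2 scale. Levels of different genes come from different probes and were not compared. Between 7041 and 8821 of 22517 probes were detected per array, fewest on SBS jejunum 1 of rat 36, and the number of arrays limits the precision. For the labelled tissue, 8 of 9 measured enterocyte markers were detected on all 12 arrays. Of the crypt list, 10 of 13 genes on the array were measured, and Lgr5, Lrig1 and Bmi1 were detected on 0 arrays. Pancreatic markers, 3 of 7 on the array measured, summed to 217 to 791 (linear normalized signal) on the SBS jejunal arrays, against 202 on the sham jejunal array, with the highest sum on SBS jejunum 1. Their part in the results was not tested.

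In ileum after resection, the replication and mitosis genes lay mostly below the sham level, and none of the 30 passed the test (adjusted p under 0.05; limma, adjusted over 9137 probes), where 2.94% of all probes did. Of the 30 genes, 27 had negative differences, SBS minus sham, against 44.9% of all probes. Their median was -0.24, against 0.03 over all probes. Fork and clamp genes had the lowest median of the 7 roles, -0.45, with 5 of 5 below 0, and the MCM helicase had -0.41, with 5 of 6 subunits below 0. Mitotic cyclins and Cdk1 had a median of -0.25, mitotic kinases and checkpoint genes of -0.19, nucleotide supply genes of -0.18, spindle genes of -0.16 and G1 and S genes of -0.09. At an unadjusted p under 0.05, 2 of the 30 genes were lower and 0 higher, against 8.49% and 8.32% of all probes.

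Mcm3, a subunit of the replicative helicase, had 4.52, 5.39, 4.88 and 4.85 on the SBS ileal arrays, against 5.37, 6.39 and 6.22 on the sham ileal arrays. Of the SBS arrays only SBS ileum 2 overlapped the sham range, and Mcm3 was not detected on SBS ileum 1. The difference was -1.09 ± 0.27 (SE), a 2.12-fold lower mean in SBS ileum, with adjusted p = 0.0565. With rat as a random block the same difference had adjusted p = 0.0499, just past the threshold. It was also past the threshold with array weights (adjusted p = 0.007), and its adjusted p ran from 0.007 to 0.269 over the alternatives. It passed when sham ileum 1, SBS ileum 2, SBS jejunum 1 or SBS jejunum 4 was left out (adjusted p = 0.0126, 0.0346, 0.0492 and 0.0469). Without rat 36 it was -0.96 with adjusted p = 0.12, so the size of the difference did not rest on that rat. Mcm3 was detected on 2 of 4 SBS jejunal arrays and on 3 of 4 SBS ileal arrays, and its low values lie close to background.

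Mcm6, another helicase subunit, had 6.56, 7.69, 7.37 and 7.78 on the SBS ileal arrays, against 7.90, 8.42 and 8.45 on the sham ileal arrays. The groups did not overlap. The difference was -0.91 ± 0.38 with adjusted p = 0.251, and it was -0.65 without rat 36 (adjusted p = 0.122). With array weights it passed the test at adjusted p = 0.0363.

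The other helicase subunits lay closer to the sham values. Mcm2 had 4.60, 5.43, 5.00 and 5.70 on the SBS ileal arrays, against 5.17, 5.73 and 5.83 on the sham ileal arrays, and Mcm7 had 5.46, 6.59, 5.91 and 6.56 on the SBS ileal arrays, against 6.52, 6.40 and 6.77 on the sham ileal arrays. Both overlapped between the groups, with differences of -0.40 ± 0.29 and -0.43 ± 0.33 (adjusted p = 0.553 and 0.567). Mcm4 differed by -0.15 ± 0.16 and Mcm5 by 0.08 ± 0.11. A second measured probe of Mcm5 differed by 0.24 ± 0.14 (adjusted p = 0.412), also above 0.

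At the fork, Fen1, the flap endonuclease that trims Okazaki fragments, had 5.37, 6.05, 5.91 and 6.00 on the SBS ileal arrays, against 6.10, 6.31 and 6.54 on the sham ileal arrays. All 4 SBS values lay below all 3 sham values, and the difference was -0.48 ± 0.30 (adjusted p = 0.473). Genes without overlap in this direction, Fen1 and Mcm6, were 2 of 30, against 8.43% of all probes, and 0 of 30 had this in the other direction, against 10.7%. Lig1, the ligase that joins Okazaki fragments, had 5.09, 5.95, 5.00 and 5.79 on the SBS ileal arrays, against 5.54, 5.98 and 6.16 on the sham ileal arrays. Pcna, the clamp, had 9.43, 10.81, 10.05 and 10.62 on the SBS ileal arrays, against 10.25, 10.85 and 10.94 on the sham ileal arrays. For Lig1 and Pcna the SBS and sham values overlapped, with differences of -0.44 ± 0.30 and -0.45 ± 0.33 (adjusted p = 0.524 and 0.549).

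Prim1, the catalytic primase subunit, had 7.34, 8.45, 8.11 and 8.64 on the SBS ileal arrays, against 8.39, 8.78 and 8.83 on the sham ileal arrays. Rfc4, a subunit of the clamp loader, had 7.58, 9.08, 8.55 and 8.79 on the SBS ileal arrays, against 8.83, 8.90 and 9.11 on the sham ileal arrays. In both genes SBS ileum 1 was lowest, and SBS ileum 3 also lay below all sham values. SBS ileum 4 lay below them in Rfc4 but not in Prim1, and SBS ileum 2 lay within the sham range in both. Their differences were -0.53 ± 0.47 and -0.45 ± 0.43 (adjusted p = 0.621 and 0.643). Nusap1, a spindle microtubule protein, had 4.37, 5.09, 4.54 and 5.07 on the SBS ileal arrays, against 4.98, 5.07 and 5.21 on the sham ileal arrays. Its SBS values split into 2 low and 2 within the sham range, and it differed by -0.32 ± 0.24 (adjusted p = 0.553). Nusap1 was not detected on the 2 low arrays, SBS ileum 1 and SBS ileum 3, so background limits its difference.

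The other 18 measured genes had ileal differences between -0.44 (Bub1, a checkpoint kinase) and 0.10 (Cdca3, a mitotic regulator). The lowest adjusted p among these 18 was 0.698 (Cdc20). Cdca3 was not detected on any sham ileal array, so its difference has a bound only and no fold is given. Intervals were wide for the mitotic genes. For Cdk1, the kinase that drives entry into mitosis, the 95% interval was -1.64 to 1.30, and for cyclin B2 (Ccnb2) it was -1.65 to 0.96. Without the 2 arrays of rat 36 these intervals narrowed to -0.38 to 0.82 for Cdk1 and to -0.46 to 0.48 for Ccnb2, with differences of 0.22 and 0.0053, both above 0.

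**Figure D1:**
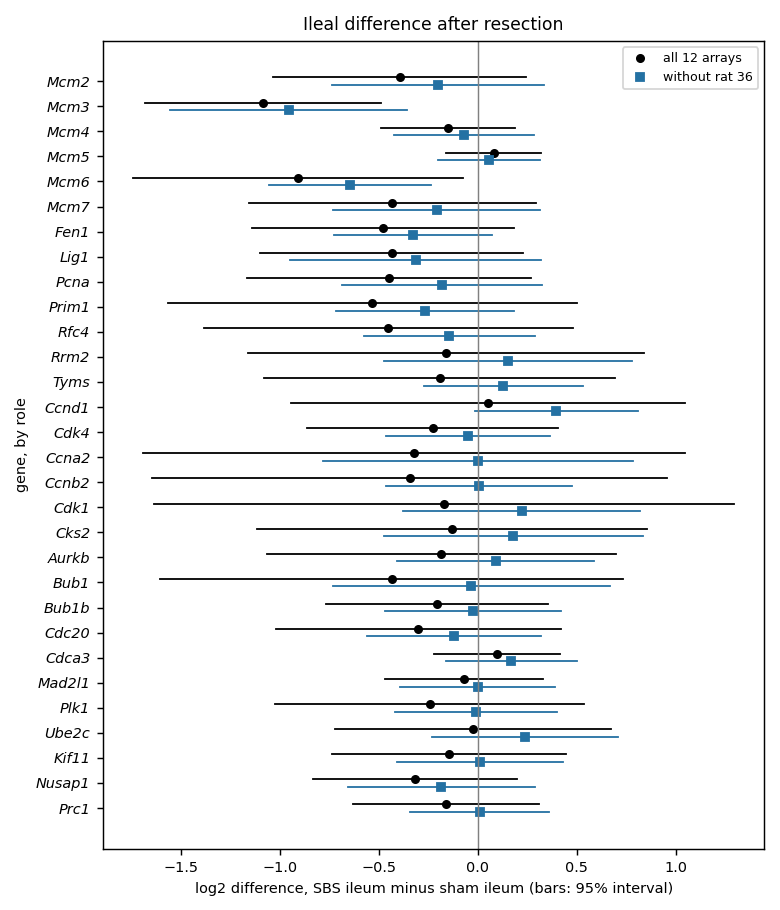
Log2 difference, SBS ileum minus sham ileum, with 95% intervals for the 30 measured genes grouped by role, for all 12 arrays (black) and without the 2 arrays of rat 36 (blue). The genes' median is -0.24 with all arrays and -0.02 without rat 36, and Mcm3 and Mcm6 stay at -0.96 and -0.65.

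The ileal shift of the genes as a whole rested on 1 rat. Without rat 36, 17 of 30 genes lay below 0 and the median was -0.02, and without SBS ileum 1 alone the median was -0.02 as well. Without SBS ileum 2 or SBS ileum 4 it was -0.37 or -0.40. Mcm3 and Mcm6 kept their sign without rat 36 (-0.96 and -0.65), and 0 of 30 genes passed the test. The sign changed for 10 of the 30 genes, among them 4 of 4 mitotic cyclins and Cdk1 genes. The median of these 4 genes was 0.09 without that rat. The sign changed for 0 of 5 fork and clamp genes and 0 of 6 helicase subunits, with medians of -0.27 and -0.21 without that rat.

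B cell markers moved with the ileal comparison. Of 5 measured B and plasma cell markers 4 fell in SBS ileum, where 2.29% of all probes fell, among them Ms4a1, which encodes CD20, by 2.17 ± 0.28 (adjusted p = 0.00391). The summed level of these 5 (linear normalized signal) was 117 to 173 on the SBS ileal arrays, against 278 to 507 on the sham ileal arrays, and Pax5 and Cd22 were detected on 0 arrays. Of 3 germinal centre B cell markers, cells that divide fast in lymphoid follicles, Mybl1 and S1pr2 fell by 2.03 and 1.38 (adjusted p = 0.00391 and 0.0166) and Bcl6 differed by -0.79 (adjusted p = 0.0547). Their sum was 81.3 to 107 on the SBS ileal arrays, against 146 to 338 on the sham ileal arrays. None of the measured genes of these lists was detected on all 12 arrays, so background may limit the size of these falls. Sham ileum 1 had the lowest sum of both lists among the sham ileal arrays. It also had the lowest value there for 21 of the 30 replication and mitosis genes, against 35.2% of all probes. The part of these cells in the Mcm3 and Mcm6 differences was not tested.

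In jejunum, 0 of the 30 genes passed the test between SBS and sham, where 1.47% of all probes did. Negative differences were found for 23 of 30, against 48.6% of all probes, with a median of -0.24 against 0.01. The comparison had 1 sham array, whose spread was taken to be that of the other groups, and 0 genes had an unadjusted p under 0.05, against 11.9% of all probes. Mitotic cyclins and Cdk1 had a median of -0.54, the lowest of the 7 roles, which was -0.00018 without rat 36. Without that rat 14 of 30 genes lay below 0 and the median over the genes was 0.02. The group means of the ileal and jejunal comparisons share no arrays, but the spread of each probe was fitted over all 12 arrays. The SBS arrays of both comparisons also came from the same 4 rats, and sham rat 33 is in both.

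Cdca3 had 4.50, 4.69, 4.33 and 4.77 on the SBS jejunal arrays, against 4.85 on the sham jejunal array. Mcm5 had 5.55, 5.42, 5.43 and 5.37 on the SBS jejunal arrays, against 5.24 on the sham jejunal array. All 4 SBS values lay below the sham value for Cdca3 and above it for Mcm5, with differences of -0.28 ± 0.21 and 0.20 ± 0.16 (adjusted p = 0.71 and 0.738). Cdca3 was detected on 1 of the 4 SBS jejunal arrays, so 3 of its SBS values lie at background. The second Mcm5 probe differed by -0.06 ± 0.20, with the opposite sign.

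Mcm3 had 4.42, 4.90, 4.65 and 5.21 on the SBS jejunal arrays, against 5.26 on the sham jejunal array. Mcm6 had 6.05, 7.48, 7.31 and 7.68 on the SBS jejunal arrays, against 7.78 on the sham jejunal array. The sham value lay above all 4 SBS values in both, and the differences were -0.47 ± 0.40 and -0.64 ± 0.56 (adjusted p = 0.762 and 0.766). Kif11, the motor that pushes spindle poles apart, had 6.30, 7.38, 6.91 and 7.34 on the SBS jejunal arrays, against 7.43 on the sham jejunal array. Lig1 had 4.42, 5.02, 4.90 and 5.66 on the SBS jejunal arrays, against 5.43 on the sham jejunal array. Kif11 did not overlap and Lig1 did, with differences of -0.45 ± 0.40 and -0.43 ± 0.45 (adjusted p = 0.772 and 0.827). Values all below the sham array were found for 5 of 30 genes, against 19.9% of all probes, and values all above it for 1, against 21.2%.

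Pcna had 9.78, 10.72, 10.50 and 10.65 on the SBS jejunal arrays, against 10.22 on the sham jejunal array. Its difference was 0.19 ± 0.48, above 0, with SBS values on both sides of the sham value. Mad2l1 and Nusap1 were not detected on the sham jejunal array, so their jejunal differences are limited by background and no fold is given. The jejunal effect minus the ileal effect had a median of 0.11 over the 30 genes, 0 passed the test of this difference, where 0.197% of all probes did, and every adjusted p rounded to 1.

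**Figure D2:**
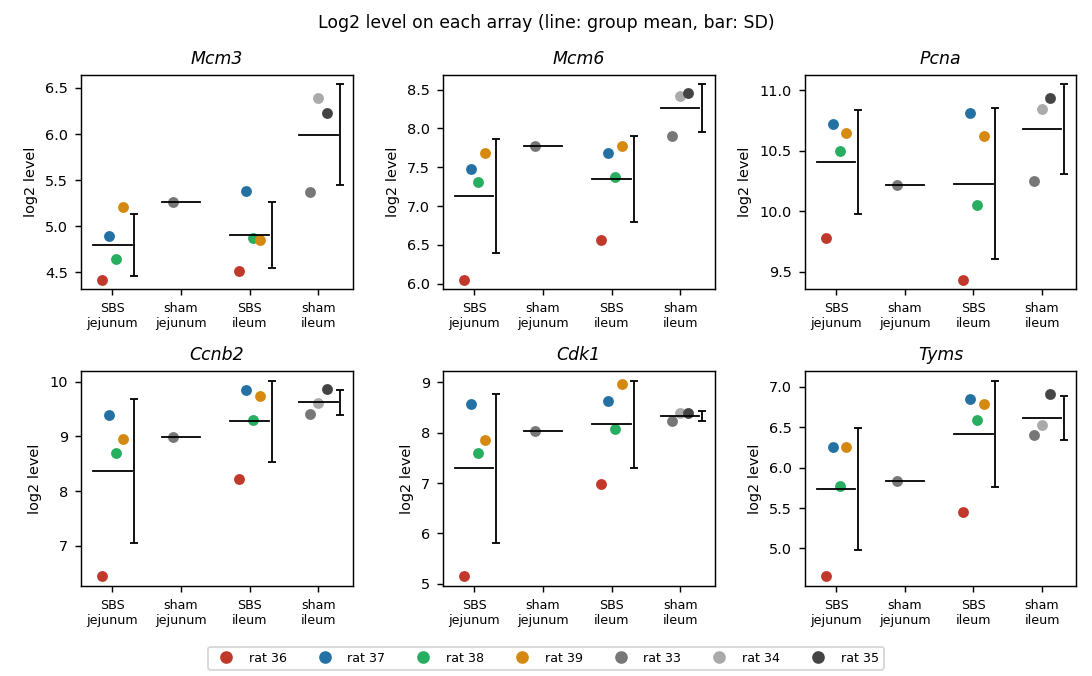
Log2 level of Mcm3, Mcm6, Pcna, Ccnb2, Cdk1 and Tyms on each array, by group, with colours for the rat, a line at the group mean and a bar for the SD (none for the single sham jejunal array). Each panel has its own axis, which does not start at 0. Rat 36 (red) is the lowest SBS point in both regions for each of the 6 genes, and the Mcm3 and Mcm6 values of SBS ileum lie mostly below those of sham ileum.

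The genes also differed between SBS rats. The arrays of rat 36 were the lowest of their group for 28 of 30 genes in ileum and 27 of 30 in jejunum, against 28.3% and 30.9% of all probes. The median deviation of the 30 genes from their group mean was -0.69 in ileum and -0.83 in jejunum for rat 36. It was 0.33 and 0.33 for rat 37, -0.08 and -0.0045 for rat 38, and 0.41 and 0.56 for rat 39. The 4 rats kept the same order in both regions, from separate arrays. Among sham ileal arrays the same medians ran from -0.11 to 0.16.

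**Figure D3:**
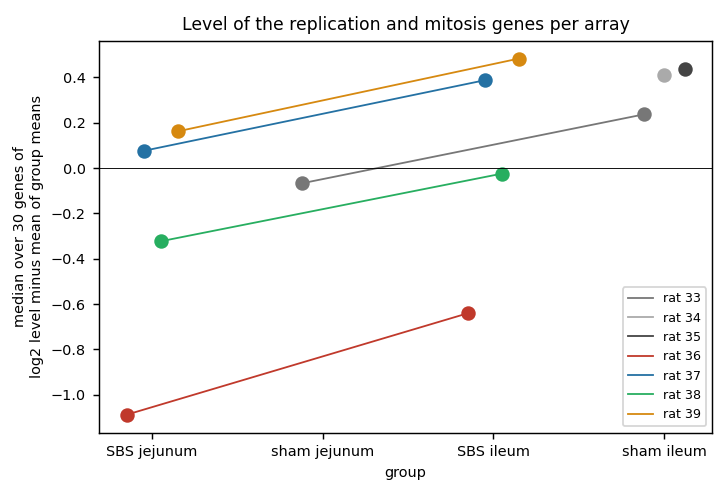
Median over the 30 genes of the log2 level minus the mean of the 4 group means, 1 point per array, by group, with lines joining arrays of the same rat. Rat 36 lies lowest in SBS jejunum and in SBS ileum, and for rats with both regions the jejunal point lies below the ileal one.

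A test for differences between the 4 SBS rats, chosen after this pattern was seen, was run on the 8 SBS arrays with region as a covariate. Each rat gave 2 arrays, 1 from each region, so the p-values measure rats against the spread within a rat. It passed for 21 of 30 genes, where 9.4% of all probes passed (859 of 9137). Rat 36 had the lowest mean for 28 of 30 genes, against 31.1% of all probes. The gap between the lowest and the highest rat had a median of 1.20 over the genes, against 0.42 over all probes. By role, 4 of 4 mitotic cyclins and Cdk1 genes passed, 2 of 2 nucleotide supply genes, 2 of 2 G1 and S genes, 5 of 8 mitotic kinase and checkpoint genes, 3 of 5 fork genes, 3 of 6 helicase subunits and 2 of 3 spindle genes.

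Cdk1 had mean levels of 6.07, 8.59, 7.83 and 8.41 in rats 36, 37, 38 and 39 (adjusted p = 0.0118). Cyclin A2 (Ccna2), which acts in S phase and G2, had 4.82, 6.88, 6.02 and 7.27 in the same rats (adjusted p = 0.00921). Cyclin B2, the mitotic partner of Cdk1, had 7.34, 9.62, 9.00 and 9.34 (adjusted p = 0.00947). In each of the 3 genes rat 36 stood more than 1 log2 unit below the next rat. Bub1 had 4.38, 6.39, 5.41 and 6.36 (adjusted p = 0.00229). It was not detected on either array of rat 36, and Ccna2 was not detected on SBS jejunum 1, so background limits the gap of rat 36 in both genes. Cyclin D1 (Ccnd1), which carries growth signals into G1, had 7.20, 8.77, 8.48 and 8.99 (adjusted p = 0.00423).

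The enzymes of nucleotide supply also had their lowest levels in rat 36. Rrm2, the small subunit of ribonucleotide reductase, had 5.67, 7.32, 6.51 and 7.38 (adjusted p = 0.00616). Tyms, thymidylate synthase, had 5.05, 6.55, 6.18 and 6.52 (adjusted p = 0.00611), and was not detected on SBS jejunum 1. Pcna had 9.61, 10.77, 10.27 and 10.63 (adjusted p = 0.0207). Rat 38 came next to rat 36 in each of these 3 genes, and rats 37 and 39 were higher.

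The other 9 genes did not pass between rats. Mcm4 and Mcm5 had rat gaps of 0.31 and 0.18 (adjusted p = 0.576 and 0.83), and rat 36 was not their lowest rat. Mcm3, the gene with the lowest ileal difference, had 4.47, 5.14, 4.76 and 5.03 in rats 36 to 39 (adjusted p = 0.184). It was not detected on SBS ileum 1, SBS jejunum 1 or SBS jejunum 3, so background limits its gap between rats. Fen1, Bub1b, Lig1, Prc1, Mad2l1 and Cdca3 were the rest, with gaps of 0.37 to 1.09.

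**Figure D4:**
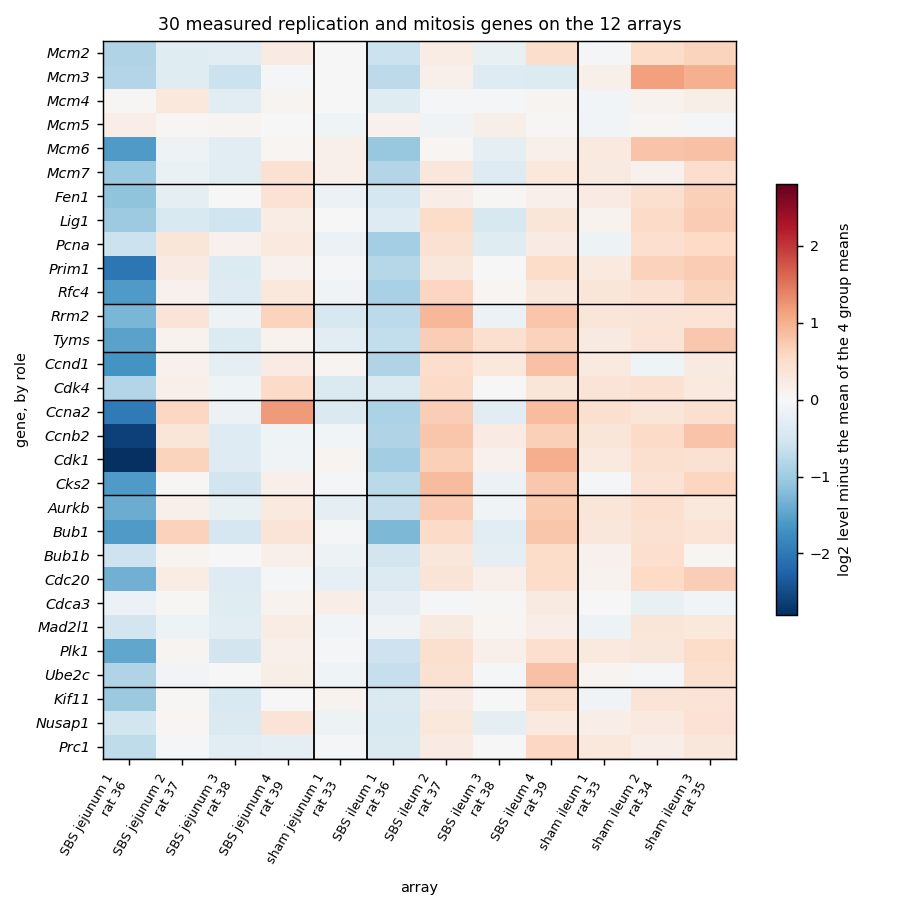
Log2 level of each of the 30 measured genes on each of the 12 arrays, minus the mean of that gene's 4 group means, with red above and blue below it. Rows are grouped by role and columns by group, and the columns of rat 36 (SBS jejunum 1 and SBS ileum 1) are blue for most genes in both regions.

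The count of genes that differed between rats depended on rat 36 and on the normalization. Of the 30 genes 22 were detected on SBS ileum 1 and 16 on SBS jejunum 1, against 26 to 30 on the other arrays, so the low values of rat 36 lie in part at background. Without rat 36, 0 of 30 genes passed between the other 3 rats (36 probes did by limma). Without SBS jejunum 1, 2 of 30 passed, with 40 probes, and without SBS ileum 1, 14 passed. With arrays scaled to one median in place of quantile normalization 1 of 30 passed, with 13 probes over the whole array, and without the filter on dim probes 0 genes and 0 probes passed. With cyclic loess 18 of 30 passed, and 17 with the deposited log2 values. At an unadjusted p under 0.05, 26 of 30 genes passed, against 26.1% of all probes.

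Other gene groups also differed between the rats. Of 10 measured crypt stem and progenitor markers 3 passed the test (Ascl2, Myc and Smoc2), where 9.4% of all probes did, and 7 were lowest in rat 36, against 31.1%. Their summed level was 1015 to 1883 on the SBS jejunal arrays, 1694 on the sham jejunal array, 1198 to 2196 on the SBS ileal arrays and 1402 to 1934 on the sham ileal arrays, lowest in each SBS group in rat 36. Enterocyte markers went the other way in rank, with 7 of 9 highest in rat 36, against 37.3% of all probes, and 0 past the test. Stroma and smooth muscle markers passed for 6 of 7, and their sums ran from 339 to 1300 on the SBS jejunal arrays and from 171 to 1255 on the SBS ileal arrays. The part of these cell types in the rat differences was not tested.

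Within the SBS rats most of the genes lay lower in jejunum than in ileum, and mitotic cyclins and Cdk1 had the lowest median of the 7 roles, -0.77. Without rat 36 that median was -0.58, and the sign changed for 1 of the 4 genes of this role. Without pairing, 0 of 30 genes passed, where 9.29% of all probes did. With the rat as a fixed block, 8 of 30 genes fell and 0 rose, where 6.79% of all probes fell. The 8 were Tyms, Cks2, Ccnd1, Ccnb2, Plk1, Cdc20, Cdk1 and Aurkb. The median over the 30 genes was -0.30, against -0.01 over all probes, and 27 of 30 lay below 0, against 52% of all probes. In all 4 rats the jejunal value was lower for 15 of 30 genes, against 17.2% of all probes, and higher for 0.

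Cyclin B2 had 6.45, 9.40, 8.70 and 8.95 on the SBS jejunal arrays, against 8.23, 9.84, 9.31 and 9.74 on the SBS ileal arrays of rats 36, 37, 38 and 39 in turn. The differences within the rats were -1.78, -0.44, -0.61 and -0.79, with a mean of -0.91 ± 0.20 and adjusted p = 0.017. Every rat had the lower value in jejunum, and rat 36 the widest gap. Cdk1 had 5.16, 8.56, 7.59 and 7.86 in SBS jejunum, against 6.99, 8.62, 8.07 and 8.97 in SBS ileum, a mean within-rat difference of -0.87 ± 0.25 (adjusted p = 0.0449). Cks2, a small protein that binds Cdk1, had 6.15, 7.76, 7.21 and 7.87 in SBS jejunum, against 6.98, 8.61, 7.56 and 8.49 in SBS ileum, a mean difference of -0.66 ± 0.13 (adjusted p = 0.00962). The within-rat difference closest to 0 was -0.06 for Cdk1, in rat 37, and -0.35 for Cks2, in rat 38.

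Tyms had the lowest adjusted p of the 30 genes. Its levels were 4.66, 6.25, 5.77 and 6.26 in SBS jejunum, against 5.45, 6.84, 6.60 and 6.79 in SBS ileum, and the differences within rats were -0.79, -0.59, -0.82 and -0.54. The mean was -0.69 ± 0.12 with adjusted p = 0.00508, and the 4 rats differed little in the size of the gap as measured. Tyms was not detected on SBS jejunum 1, so the gap of rat 36 has a bound only. Cyclin D1 had 6.78, 8.58, 8.21 and 8.70 in SBS jejunum, against 7.62, 8.96, 8.75 and 9.28 in SBS ileum, a mean difference of -0.58 ± 0.13 (adjusted p = 0.0146).

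Of the mitotic kinases, Plk1, which acts at centrosomes and kinetochores, had 4.33, 5.86, 5.28 and 5.92 in SBS jejunum, against 5.21, 6.24, 5.93 and 6.26 in SBS ileum. Aurkb, the kinase that corrects faulty spindle attachments, had 4.86, 6.39, 6.04 and 6.53 in SBS jejunum, against 5.62, 6.97, 6.16 and 7.00 in SBS ileum. Cdc20, the activator of the anaphase-promoting complex, had 5.11, 6.66, 6.08 and 6.38 in SBS jejunum, against 6.06, 6.80, 6.59 and 6.95 in SBS ileum. Each was lower in jejunum in 4 of 4 rats, while the ranges of the 2 regions overlapped between rats. Their mean differences were -0.56 ± 0.14, -0.48 ± 0.14 and -0.54 ± 0.15 (adjusted p = 0.0223, 0.0476 and 0.0393). Plk1 and Aurkb were not detected on SBS jejunum 1, so their gaps in rat 36 have a bound only.

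Just short of the threshold were Kif11 and Prc1. Kif11 had 6.30, 7.38, 6.91 and 7.34 in SBS jejunum, against 6.94, 7.57, 7.33 and 7.79 in SBS ileum, a mean difference of -0.42 ± 0.13 (adjusted p = 0.055). Prc1, a crosslinker of the central spindle in cytokinesis, had 6.30, 6.96, 6.69 and 6.73 in SBS jejunum, against 6.59, 7.23, 7.01 and 7.58 in SBS ileum, a mean difference of -0.44 ± 0.14 (adjusted p = 0.0704). Both were lower in jejunum in 4 of 4 rats. Mad2l1, the checkpoint protein, had 4.26, 4.62, 4.46 and 4.98 in SBS jejunum, against 4.67, 5.03, 4.83 and 4.96 in SBS ileum. It differed by -0.29 ± 0.13 (adjusted p = 0.186), and it was detected on 1 of 4 SBS jejunal arrays and 3 of 4 SBS ileal arrays.

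The 6 helicase subunits differed by -0.29 to 0.11 with 0 past the test, and Mcm2 and Mcm6 were lower in jejunum in 4 of 4 rats. Pcna differed by 0.18 ± 0.14 (adjusted p = 0.474), lower in jejunum in 1 of 4 rats. Whether helicase and mitotic genes differ from each other in this gap was not tested.

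**Figure D5:**
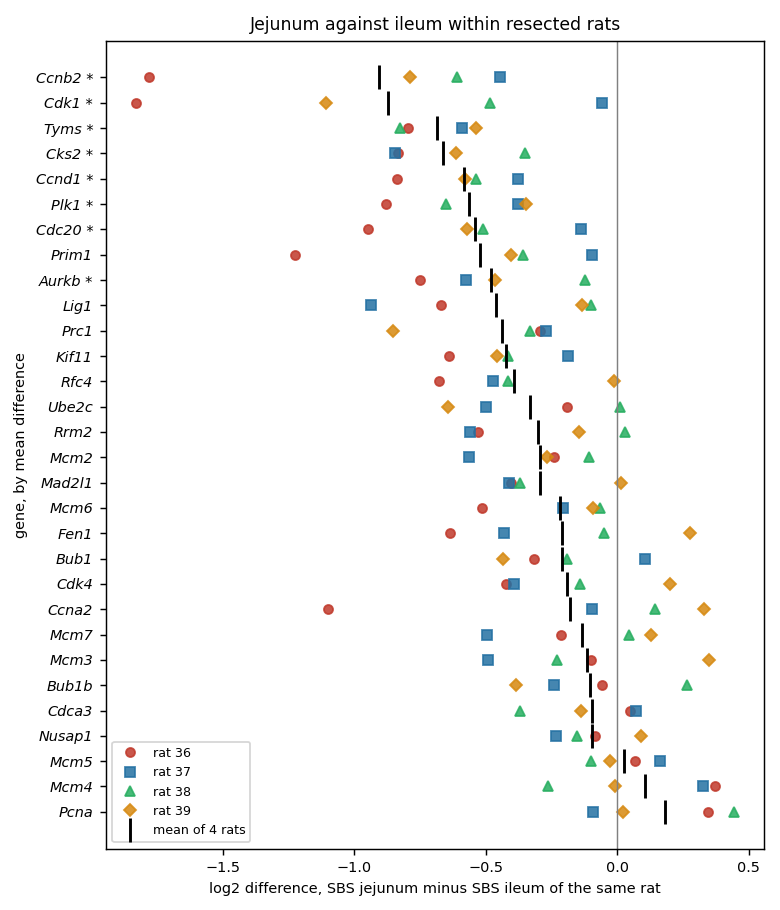
Log2 difference, SBS jejunum minus SBS ileum of the same rat, for the 30 measured genes in order of the mean, with 1 symbol per rat and a black bar at the mean of the 4 rats. Stars mark the 8 genes past adjusted p under 0.05 with the rat as a fixed block. The 8 starred genes lie below 0 in each of the 4 rats.

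The count depended on the rats, on the processing and on the kind of block. With rat as a random block over all 12 arrays 0 of 30 genes passed. With the fixed block and without rat 36, 2 of 30 genes passed (Tyms and Ccnb2, adjusted p = 0.0301 and 0.0384). Without rats 37, 38 and 39 the counts were 5, 4 and 6. With median scaling 0 passed, and without the filter on dim probes 3 (Tyms, Ccnd1 and Cks2). The calls of Cdk1 and Aurkb held under 2 of 10 alternatives each. For Cdk1 the adjusted p was 0.0571 with the deposited values, 0.0795 with an offset of 50 and 0.0826 with cyclic loess, and for Aurkb it was 0.0553, 0.0545 and 0.0681 in the same order.

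Markers of other cell types moved with the same contrast. Of 9 enterocyte markers 3 fell and 1 rose in jejunum with the rat block, and of 7 goblet and Paneth cell markers 3 fell and 1 rose, where 6.79% of all probes fell and 7.15% rose. Of 10 measured T and NK cell markers 8 fell, Cd5 and Cd4 were detected on 0 arrays, and their sums were 800 to 1390 on the SBS jejunal arrays, against 1432 to 2097 on the SBS ileal arrays. Their part in the gap of the mitotic genes was not tested.

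In sham rats the same contrast rests on 1 jejunal array, which shares its rat with 1 of the 3 ileal arrays. Of the 30 genes 29 lay lower in sham jejunum, against 52.5% of all probes, with a median of -0.44 against -0.02 over all probes. None passed the test, where 0.624% of all probes did, and 0 had an unadjusted p under 0.05, against 8.97% of all probes. The sham jejunal value lay below all 3 ileal values for 22 of 30 genes, against 34.2% of all probes. Tyms had 5.83 in sham jejunum, against 6.40, 6.53 and 6.91 in sham ileum, and Ccnb2 had 9.00 against 9.41, 9.60 and 9.86 in the same groups. Both jejunal values lay below the ileal range, with differences of -0.78 ± 0.61 and -0.63 ± 0.90 (adjusted p = 0.804 and 0.905).

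The wider replication and mitosis machinery, in 9 lists of genes beside the 40, held 84 measured genes, of which 1 passed between SBS and sham in ileum and 0 in jejunum, against 2.94% and 1.47% of all probes. Rbl2, which encodes the pocket protein p130 that holds cell cycle genes silent in resting cells, had 6.63, 6.90, 6.93 and 6.38 on the SBS ileal arrays, against 7.24, 7.80 and 7.77 on the sham ileal arrays. The groups did not overlap, and Rbl2 fell by 0.89 ± 0.17 (adjusted p = 0.0194). It was also lower in SBS jejunum than in SBS ileum, with a difference of -0.73 ± 0.16 (adjusted p = 0.0134). It was 1 of 7 measured E2F, RB and mitotic transcription factor genes, and the other 6 did not pass in ileum.

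Kinetochore and mitotic motor genes, 20 measured, followed the 30 genes between rats. Of these 12 passed the test between rats, where 9.4% of all probes did, and 19 were lowest in rat 36, against 31.1%, while 0 passed between SBS and sham in either region. With the rat block 2 of the 20 fell in SBS jejunum against SBS ileum, where 6.79% of all probes did, Kif20a by 0.53 ± 0.12 and Kif22 by 0.61 ± 0.13 (adjusted p = 0.0185 and 0.0121). Both are motors of the late spindle or the chromosome arms. Polymerase, clamp loader and RPA genes passed between rats for 6 of 14, and origin licensing and firing genes for 3 of 9. Their ileal medians between SBS and sham were -0.39 and -0.12, with 0 called in either. In the anaphase-promoting complex 0 of 8 passed between rats, and Anapc1 was lower in SBS jejunum than in SBS ileum, with a difference of -0.62 ± 0.18 without the block (adjusted p = 0.0474). With the block, Anapc1, Anapc4, the cohesin subunit gene Smc3, the clamp loader gene Rfc3 and Rbl2 fell in SBS jejunum (differences of -0.62, -0.67, -0.64, -0.48 and -0.73, adjusted p = 0.019, 0.02, 0.0221, 0.0467 and 0.0036). Pold4, a small subunit of DNA polymerase delta, rose by 0.74 ± 0.15 (adjusted p = 0.00891).

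The remaining lists were set against the same 9.4% of all probes. Between rats 3 of 7 nucleotide synthesis genes passed, 2 of 8 other cyclins, kinases and phosphatases, 1 of 8 cohesin and condensin genes, 1 of 7 E2F, RB and mitotic transcription factors and 0 of 3 kinase inhibitors. Cdkn1a, which encodes the inhibitor p21, had 5.52, 5.44, 5.10 and 5.19 on the SBS ileal arrays, against 5.05, 5.08 and 4.73 on the sham ileal arrays. All SBS values lay above all sham values, with a difference of 0.36 ± 0.14 that did not pass the test (adjusted p = 0.214).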

How the data were processed

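Gene expression was measured by biotin-labelled cRNA on Illumina RatRef-12 bead arrays, per the labels' protocols. Each probe's mean bead signal was deposited as a linear intensity without normalization, beside its detection p-value from the authors' file. Log2 values in the authors' value table were already quantile normalized, with a median of 5.86 on each array, and lay within 0.01 of a quantile normalization of the log2 signals. The sources used here name no chip positions or scan batches.

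Signals were corrected with the normexp model from the detection p-values (offset 16), then brought to log2 and to equal quantiles (limma 3.58.1, R 4.3.3). Of 22517 probes, 9137 were kept, those with a detection p under 0.05 on 3 or more of the 12 arrays. Symbols came from the array annotation, and 8730 probes had none. A gene with several kept probes is shown by the one with the highest mean.

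A mean per group was fitted over the 12 arrays (lmFit, eBayes). Tests were two-sided, adjusted by Benjamini-Hochberg over 9137 probes and called under 0.05. For the lone array of sham jejunum the spread of the other groups was assumed. Arrays of the same SBS rat deviated together (correlations across probes of 0.66, 0.47, 0.19 and 0.44), so rat was used as a block where stated. The rat test used region as covariate.

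Values on every array are given for the 10 genes with the smallest p in ileum, the 6 in jejunum, the 6 between regions, and Pcna, beside genes that passed with the rat block, chosen after their values were seen. From other lists up to 2 genes and all called ones are named. The genes, lists and tests were chosen with earlier results of these data known, and the test between rats after the pattern was seen. Promoters came from RefSeq GRCr8. Alternatives were other background corrections, scalings, filters, fits, blocks and left-out arrays or rats.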

Additional observations from a re-analysis of the deposited data

How the results depend on the processing

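The count of 0 called genes held in jejunum, between regions of sham rats and for the difference of effects under each alternative run, and of 32 differences of single genes recomputed under the alternatives 1 changed sign, that of Pcna between SBS jejunum and SBS ileum (0.18, and -0.084 to 0.39 when single arrays were left out, below 0 without SBS ileum 1). Over all 30 genes, 10 ileal and 9 jejunal differences changed sign without rat 36. In ileum the count was 2 with array weights (Mcm3 and Mcm6), 1 with rat as a random replicate block (Mcm3) and 0 to 1 when single arrays were left out. The ileal median ran from -0.40 to -0.02 when single arrays were left out, and the jejunal median from -0.35 to 0.02 (without SBS jejunum 1). The median between regions in SBS rats ran from -0.58 (without SBS ileum 1) to -0.05 (without SBS jejunum 1). Between regions of SBS rats, rat as a fixed block over the 8 SBS arrays moved the count to 8, from 0 without a block. With rat as a random block over all 12 arrays this count stayed 0. Beside the ileal count under the random block, neither block changed another count of called genes among the 30. With the fixed block the count was 0 with median scaling, 3 without the filter on dim probes, and 2, 5 and 4 without rats 36, 37 and 38. Between rats 21 genes were called, against 1 with median scaling, 0 without the filter on dim probes, 0 without rat 36 and 2 to 21 when single arrays were left out (2 without SBS jejunum 1). Over all probes, 269 were called in ileum, 128 without rat 36, 930 with array weights and 23 to 330 when single arrays were left out (23 and 26 without sham ileum 2 and sham ileum 3). Dropping the filter raised the number of probes tested to 22517. The cause of the other moves was not tested. Detection limits the low values of rat 36, with 22 and 16 of 30 genes detected on its ileal and jejunal arrays.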
